A study of Mus musculus with 6 samples.

Results

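Messenger RNA of the type 2 helper T cell (Th2) cytokines, of related growth factors and of the Th2 transcription factor Gata3 was examined in mouse CD4 T cells that had been stimulated with little arginine or with a normal supply. The set was a named list of 10 genes (Il3, Il4, Il5, Il9, Il10, Il13, Il24, Csf2, Areg and Gata3). Of these, 9 had a probe set that carried exactly 1 gene symbol, out of 22180 genes with such a probe set on the array, and Areg was not analysed here. The brightest probe set by mean over the 6 arrays stood for its gene. The dimmest genes by the same mean, those under 2.48 on the log2 scale, were left out of the test, which removed Il3 and kept 8 of the 10 genes among 14787 tested.

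The T cells came from spleens and lymph nodes of OT II transgenic mice 12 to 16 weeks old, whose transgenic T cell receptor recognises an ovalbumin peptide. The low arginine group (3 arrays) was cultured in RPMI-1640 with arginine at 12 uM, 1% of the usual level, and the control group (3 arrays) in complete RPMI-1640. Every culture held 10% dialysed serum, antigen-presenting cells and the peptide for 72 hours, and CD4 cells were purified again before RNA was extracted. The design text names 6 mice and the labels call the arrays biological replicates, without saying which mice gave which array, so p-values measure the spread between these arrays. The comparison asks which transcripts differ when antigen-stimulated CD4 T cells have 1% of the usual arginine. CD4 cells had first been isolated by removing cells that bear B220, MHC class II, CD11b, CD49b or CD8 alpha.

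Th2 cells are the helper T cells of allergy and of immunity to worms, and interleukins 4, 5 and 13 are their signature products. The genes of these cytokines lie together with Rad50 in a locus that opens during Th2 differentiation under the control of Gata3 and of Stat6, the signal carrier of the interleukin 4 receptor. Interleukin 3 and GM-CSF (Csf2) are growth factors of myeloid cells that activated T cells also make, and their genes neighbour that locus. Interleukin 9 feeds mast cells, interleukin 10 restrains inflammation, interleukin 24 is a member of the interleukin 10 family that acts mainly on epithelial cells, and amphiregulin (Areg) is a ligand of the epidermal growth factor receptor involved in tissue repair.

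The start regions of 5 of these genes are given because the values of their transcripts took different patterns over the arrays. Il4, Il13 and Il5 were highest in a single control array, while Csf2 and Il9 had higher group means in low arginine. Each window is the RefSeq promoter of build GRCm38.p6, 250 bases before the start and 50 from it on, read 5′ to 3′ on the gene's strand. Capitals mark the GATA motif, which was searched on either strand in 4 spellings that start with A or T, go on with GATA and end with A or G.
Il4, chr11:53618616-53618915, minus strand: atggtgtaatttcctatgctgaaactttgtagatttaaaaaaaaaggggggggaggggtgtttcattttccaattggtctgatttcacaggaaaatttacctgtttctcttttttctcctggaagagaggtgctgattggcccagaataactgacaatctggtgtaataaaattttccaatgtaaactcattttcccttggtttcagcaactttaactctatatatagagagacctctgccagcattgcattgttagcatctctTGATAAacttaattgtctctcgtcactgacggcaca
Il13, chr11:53634653-53634952, minus strand: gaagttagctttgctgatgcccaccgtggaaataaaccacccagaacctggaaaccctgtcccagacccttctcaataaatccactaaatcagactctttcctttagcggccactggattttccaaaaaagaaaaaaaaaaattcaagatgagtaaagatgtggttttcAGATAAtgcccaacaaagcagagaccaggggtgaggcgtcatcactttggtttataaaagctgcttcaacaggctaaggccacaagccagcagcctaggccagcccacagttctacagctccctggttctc
Il5, chr11:53720544-53720843, plus strand: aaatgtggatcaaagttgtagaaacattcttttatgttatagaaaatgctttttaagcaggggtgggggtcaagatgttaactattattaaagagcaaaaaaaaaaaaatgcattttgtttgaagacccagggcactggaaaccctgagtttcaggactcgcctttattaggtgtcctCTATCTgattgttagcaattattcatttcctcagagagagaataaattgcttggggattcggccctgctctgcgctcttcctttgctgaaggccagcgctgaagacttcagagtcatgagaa
Csf2, chr11:54249850-54250149, minus strand: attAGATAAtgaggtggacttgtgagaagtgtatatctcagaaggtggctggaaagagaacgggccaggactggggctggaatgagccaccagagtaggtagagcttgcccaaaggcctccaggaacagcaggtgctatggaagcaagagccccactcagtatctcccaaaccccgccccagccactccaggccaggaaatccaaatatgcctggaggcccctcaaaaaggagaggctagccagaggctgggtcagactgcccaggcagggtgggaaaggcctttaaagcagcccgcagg
Il9, chr13:56482208-56482507, minus strand: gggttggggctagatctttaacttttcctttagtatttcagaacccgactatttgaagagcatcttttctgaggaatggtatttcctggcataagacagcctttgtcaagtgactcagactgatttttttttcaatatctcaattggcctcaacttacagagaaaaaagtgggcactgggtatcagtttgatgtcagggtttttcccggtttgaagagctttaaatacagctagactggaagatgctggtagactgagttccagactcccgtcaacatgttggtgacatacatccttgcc
The GATA letters stood once in each of the windows of Il4, Il13, Il5 and Csf2 and did not stand in that of Il9. Il4 has a second window in the table, which also holds the letters once and is not shown. They occurred in 29.8% of all 32851 promoter windows of this length, so a match alone does not show that a factor binds there. Binding was not tested. In Il13 the match began at base -81 from the start and in Csf2 at base -247. The core of the motif of NFAT, the factor that calcium signals from the T cell receptor switch on, was searched as GGAAA on either strand. It stood 5 times in the Il4 window, 4 times in that of Il13, 3 times in those of Csf2 and Il9 and 2 times in that of Il5, and 61.3% of all windows held it.

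Expression was deposited on a log2 scale, with values that ran from 0.956 to 12.41, with array medians between 2.97 and 3.03. Changes are low arginine minus control on that log2 scale. Levels of different genes cannot be set against each other on an array, so each change compares a gene only with itself. The filter on dim genes and the choice of the brightest marker do rank genes by signal. Mean levels of marker lists average unlike probe sets of the genes tested and are only a description. The T cell genes Cd3e (change 0.10, limma adjusted p = 0.597) and Cd4 (-0.24, 0.29) had high signals on every array, from 9.96 to 10.94. Over all genes tested 1799 (12.2%) passed an adjusted p of 0.05, 767 (5.19%) higher and 1032 (6.98%) lower in low arginine. Scaling the arrays to a common 75th percentile gave 535 higher and 1190 lower genes instead. Mki67, a marker of dividing cells, fell by 1.63 (adjusted p = 0.0228), a call that ended on leaving out any 1 of 4 arrays, numbers 2 and 3 of each group (0.0554 to 0.0967). In these bulk samples a smaller number of cells that make a cytokine and less of its RNA in each cell cannot be told apart.

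Control replicate 1 stood apart from the other controls for the set as a whole, and this bears on every result below. All 8 tested genes were higher in control replicate 1 than in both other controls, which held for 40.1% of all genes tested. In 6 of the 8 it lay at least 1 log2 unit above both, against 1.31% of all genes tested. The 3 control arrays spanned at least 2 log2 units for 5 of the 8, against 0.298% of all genes. Il10 is among these 6 and these 5, and it passed the filter on dim genes only through control replicate 1. Of the 7 others, control replicate 1 was above both other controls in 7 and at least 1 log2 unit above both in 5. The controls spanned at least 2 log2 units in 4 of the 7. The median range among the controls was 2.57 over the 8 genes and 0.34 over all genes, and among the low arginine arrays 0.61 and 0.23. Without Il10, the middle range of the 7 was 2.50 (Il4) among the controls and 0.81 (Il13) in low arginine. Of the 20 genes with the largest excess of control replicate 1 over the mean of the other controls, 5 belonged to the set, namely Il13 in place 2, Il24 in place 5, Il10 in place 6, Il9 in place 7 and Il4 in place 10. Genes of the Y chromosome ranked beside them, Eif2s3y in place 3 (excess 3.18) and Uty in place 9 (2.38).

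By limma 1 of the 8 tested genes passed the threshold, against 12.2% of all genes tested, a share near the background. It was Il24, which fell (6.98% of all genes fell and 5.19% rose). At an unadjusted p below 0.05 lay 3 of the 8 (Il24, Csf2 and Il9), against 27.3% of all genes. The groups did not overlap for 4 of the 8 genes, against 32.2% of all genes tested. Of these, Il24, Il4 and Il5 were lower in low arginine (16.2% of all genes) and Csf2 was higher (16.0% of all genes). The median change of the 8 was -0.76, beside 0.01 over all genes tested, and -0.14 without control replicate 1, beside 0.02. These medians include Il10, which entered the test only through control replicate 1. Of the other 7 genes, the middle change was that of Il5, -0.63, and -0.26 without control replicate 1. On leaving out control replicate 1, limma called 3 of the 8, against 22.5% of all genes tested: Il9 and Csf2 rose and Il24 fell. That array was the highest control for each of the 8, so leaving it out by itself moves every change upward.

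**Figure D1:**
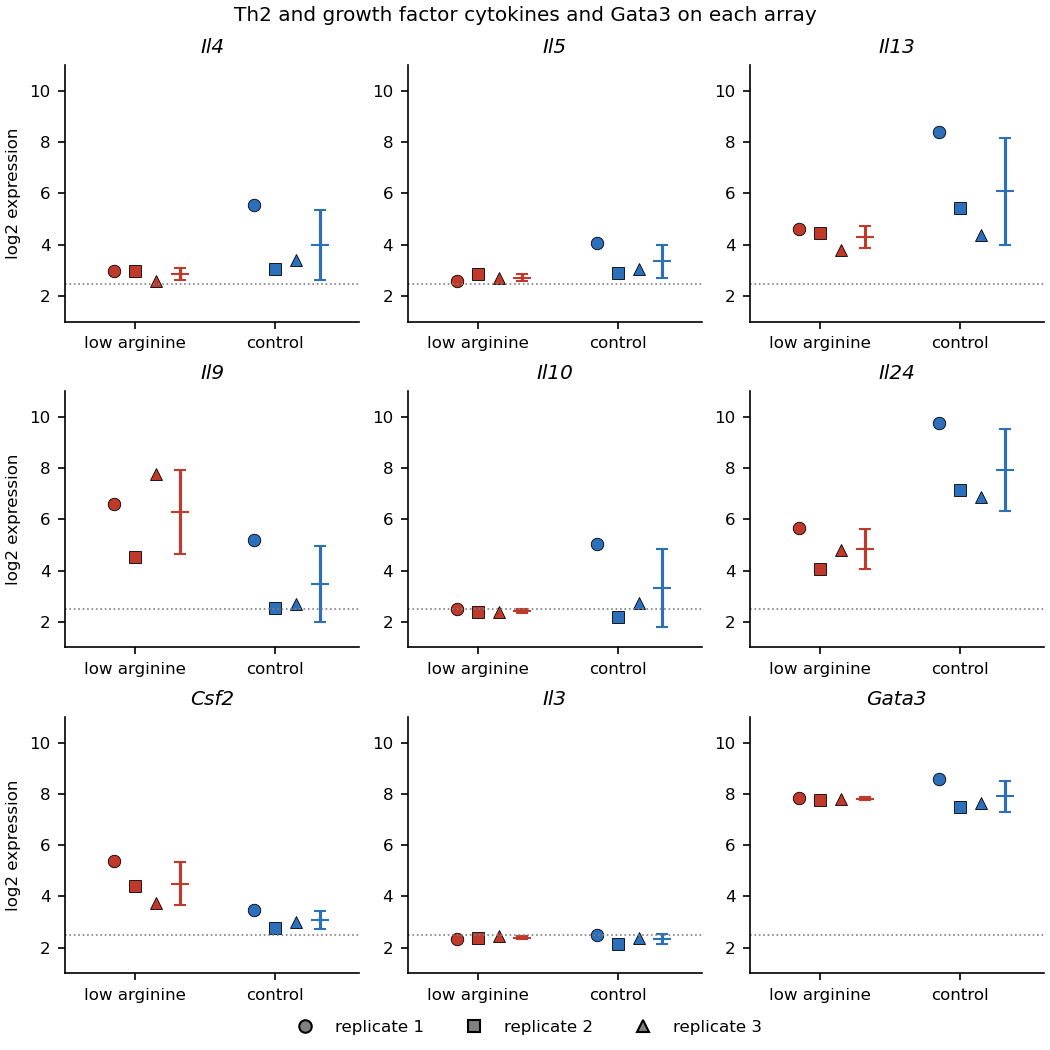
Log2 expression (vertical axis) of 8 cytokine genes and Gata3 on each array, low arginine in red at left and control in blue at right. Symbols are replicates, bars are mean ± SD over 3 arrays, and the dotted line is the limit of 2.48 below which genes were left out as dim. Control replicate 1 (circle) is the highest control in every panel, and for Il9 and Csf2 the low arginine arrays reach 7.77 and 5.37.

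Il4 (probe set 17262683), which encodes the cytokine that both drives Th2 differentiation and switches B cells to IgE, read 2.98, 2.99 and 2.58 in low arginine replicates 1, 2 and 3. In the controls it read 5.54, 3.04 and 3.38. Control replicate 1 was high and the other 5 arrays lay between 2.58 and 3.38. The groups did not overlap, but low arginine replicate 2 lay below control replicate 2 by little (difference -0.055). The mean was 2.85 ± 0.23 in low arginine and 3.99 ± 1.36 in control (SD, n = 3 each), a change of -1.14 with a 95% interval of -2.49 to 0.21 (limma adjusted p = 0.261). The change was -0.36 without control replicate 1 (adjusted p = 0.172).

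Il13 (probe set 17262695), the effector cytokine of mucus production and airway reactivity, showed the widest control spread of the set. It read 4.60, 4.47 and 3.79 in low arginine replicates 1, 2 and 3, against 8.40, 5.45 and 4.38 in the controls. Control replicate 3 lay below low arginine replicates 1 and 2, so the groups overlapped. The range among the controls, 4.01, was wider than that of 99.98% of genes tested. The change was -1.79, with a 95% interval of -3.86 to 0.28 (limma adjusted p = 0.249), and -0.63 without control replicate 1 (0.236).

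Il5 (probe set 17249586), the growth factor of eosinophils, read 2.59, 2.86 and 2.68 in low arginine, against 4.08, 2.90 and 3.06 in control. The groups did not overlap, but low arginine replicate 2 and control replicate 2 differed by only 0.03. The change was -0.63, with a 95% interval of -1.30 to 0.04 (limma adjusted p = 0.21), and -0.26 without control replicate 1 (0.181). Outside control replicate 1, both Il4 and Il5 were close to the dim limit of 2.48, and weak signal limits how well a difference can be sized there.

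Il9 (probe set 17293013) had the largest change of the set in the upward direction and also the widest spread in low arginine. It read 6.59, 4.52 and 7.77 in low arginine replicates 1, 2 and 3, against 5.19, 2.55 and 2.68 in the controls. Low arginine replicate 2 lay below control replicate 1, so the groups overlapped, while all 3 low arginine arrays lay above control replicates 2 and 3. The mean was 6.30 ± 1.64 in low arginine and 3.47 ± 1.49 in control (SD, n = 3 each). The change was 2.82, with a 95% interval of 0.67 to 4.98, and did not pass over all genes (limma adjusted p = 0.0931). It was 3.68 without control replicate 1 (adjusted p = 0.0141), where Il9 rose, and over the 6 ways to leave out an array it ran from 2.09 to 3.71. The range among the low arginine arrays, 3.25, exceeded that of 99.98% of genes tested.

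Il10 (probe set 17216990) was seen above the dim limit mainly on a single array. It read 2.51, 2.38 and 2.40 in low arginine, against 5.04, 2.18 and 2.73 in control. Low arginine lay between control replicates 2 and 3, and the mean over the 5 arrays other than control replicate 1 was 2.44, under the dim limit, so Il10 entered the test through that array alone. The change was -0.89, with a 95% interval of -2.37 to 0.60 (limma adjusted p = 0.442), -0.03 without control replicate 1 (0.939) and 0.078 with array weights (0.874).

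Il24 (probe set 17226708) gave the only call of the set. It read 5.64, 4.05 and 4.82 in low arginine replicates 1, 2 and 3, against 9.76, 7.13 and 6.89 in the controls. The highest low arginine array, 5.64, lay below the lowest control, 6.89. The mean was 4.84 ± 0.80 in low arginine and 7.92 ± 1.59 in control (SD, n = 3 each), and Il24 fell by 3.09, with a 95% interval of -4.82 to -1.35 (limma adjusted p = 0.0364), an 8.50-fold difference. It fell by 2.17 without control replicate 1 (adjusted p = 0.00767). The call ended without control replicate 2 (adjusted p = 0.0792) and without low arginine replicate 1 (0.0597), 2 (0.135) or 3 (0.12), with changes of -3.49 to -2.69.

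Csf2 (probe set 17262816), the gene of GM-CSF, read 5.37, 4.41 and 3.73 in low arginine, against 3.46, 2.78 and 2.99 in control. The groups did not overlap, the nearest arrays being low arginine replicate 3 and control replicate 1. The mean was 4.50 ± 0.82 in low arginine and 3.08 ± 0.35 in control (SD, n = 3 each). The change of 1.43, with a 95% interval of 0.54 to 2.32, missed the threshold (limma adjusted p = 0.0511). It passed without control replicate 1 (1.62, adjusted p = 0.0254) and without low arginine replicate 3 (1.81, 0.039). The second, dimmer probe set of Csf2 had a difference of 0.08, with 2.66, 2.33 and 2.18 in low arginine and 2.43, 2.14 and 2.36 in control, and with the mean of both probe sets the change was 0.75 (adjusted p = 0.108).

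Il3 (probe set 17262823), the neighbour of Csf2 and a growth factor of mast cells and basophils, lay near or under the dim limit on all arrays. It read 2.34, 2.37 and 2.45 in low arginine and 2.49, 2.13 and 2.39 in control, and with no filter on dim genes its change was 0.05 (limma adjusted p = 0.899). No difference was detectable at this signal.

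Gata3 (probe set 17381533), the transcription factor that commits T cells to the Th2 fate, read 7.86, 7.76 and 7.82 in low arginine, against 8.58, 7.48 and 7.64 in control. The 3 low arginine arrays lay within 0.10 of each other and between the controls. The change was -0.09, with a 95% interval of -0.71 to 0.53 (limma adjusted p = 0.883). Its sign turned without control replicate 1, to 0.25 (adjusted p = 0.143), and with array weights, to 0.27 (0.173). The other probe set of Gata3, at 4.42, 4.34 and 4.37 in low arginine and 4.60, 4.41 and 4.20 in control, had a difference of -0.03.

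**Figure D2:**
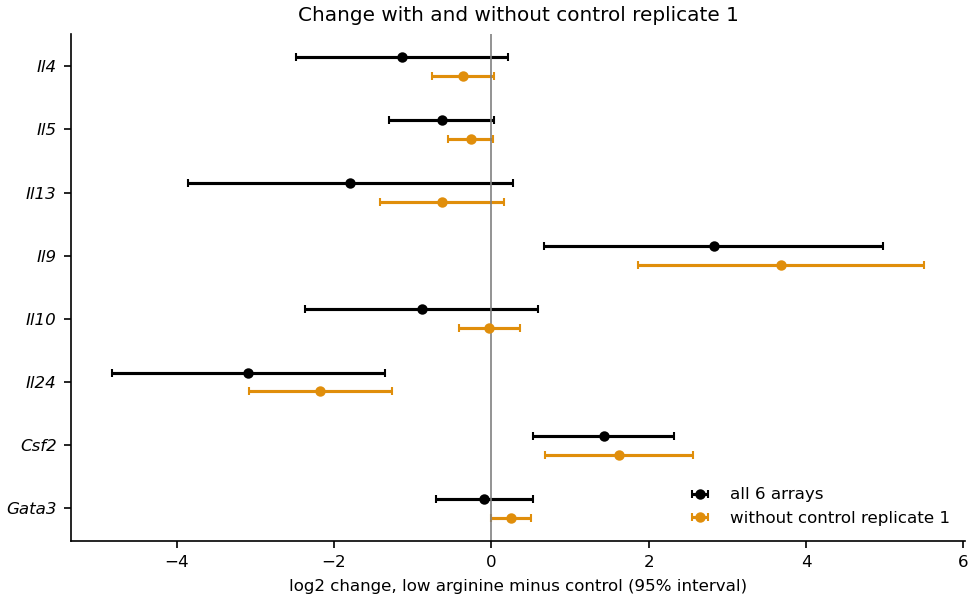
Log2 change in low arginine minus control with its 95% interval from limma, for the 8 tested genes, with all 6 arrays (black) and without control replicate 1 (orange). Il13 moves to -0.63 and Il10 to -0.03 without that array, while Il24 stays at -2.17 and Il9 reaches 3.68.

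**Figure D3:**
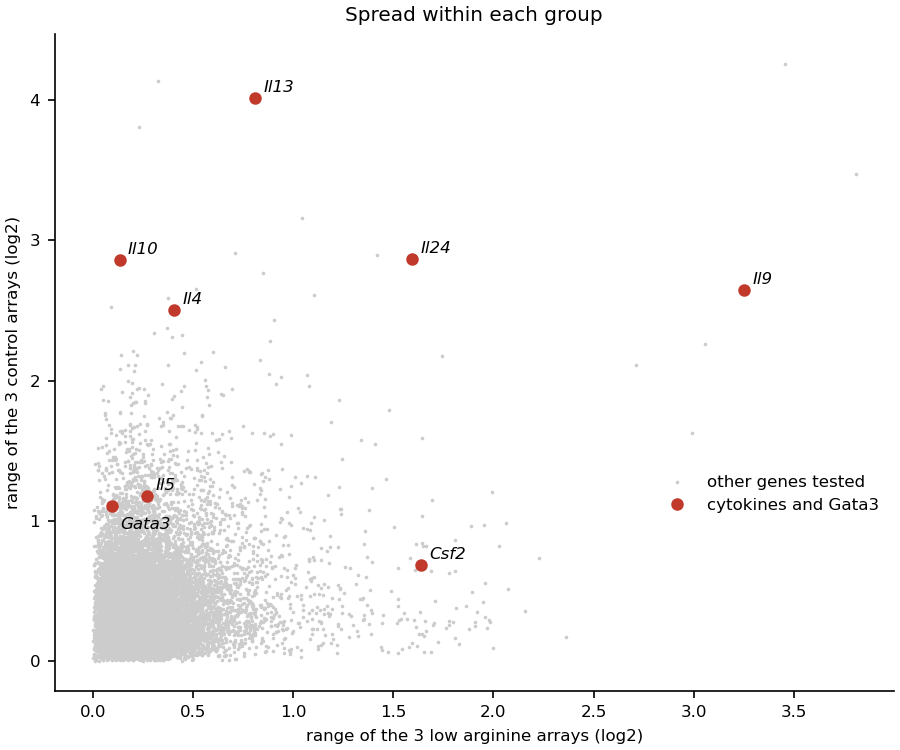
Range of the 3 control arrays (vertical axis, log2) against the range of the 3 low arginine arrays (horizontal axis, log2) for all genes tested, with the 8 tested genes of the set in red. Il13, Il10, Il24, Il9 and Il4 span over 2 log2 units among the controls, and Il9 also spans 3.25 among the low arginine arrays.

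Other genes typical of Th2 cells shared the excess in control replicate 1 in part. Of 7 tested genes of Th2 surface and effector products, 3 lay at least 1 log2 unit above both other controls there. Penk, the precursor of enkephalin peptides, read 6.83, 6.28 and 5.79 in low arginine and 7.88, 5.17 and 4.72 in control. Ccr8, a chemokine receptor of Th2 and regulatory cells, read 7.53, 6.91 and 8.65 in low arginine and 7.69, 5.51 and 5.65 in control. Control replicate 1 exceeded the mean of the other controls by 2.93 in Penk, by 2.11 in Ccr8 and by 1.28 in the chemokine receptor Ccr4. Over all genes tested 5.19% rose and 6.98% fell. Il17rb, a cytokine receptor chain of Th2 cells, was the 1 gene of this list that rose (change 0.96, limma adjusted p = 0.023), and none fell (median change 0.32). That call ended on leaving out any 1 of 3 arrays, namely control replicate 2 and low arginine replicates 1 and 3 (adjusted p = 0.0756 to 0.0962). There were 4 rises without control replicate 1, beside 1626 of all 14787 genes tested. They added Ccr8 (2.12, adjusted p = 0.0118), Penk (1.36, 0.0137) and Il1rap, a shared receptor chain of the interleukin 1 family (0.41, 0.0401). Control replicate 1 was the highest control in all of these added genes, so leaving it out by itself moves their change upward. With all arrays, the change was 1.42 in Ccr8 (adjusted p = 0.2) and 0.38 in Penk (0.808). With all arrays, Il1rap differed by 0.32 (adjusted p = 0.139) by its brightest probe set and by 0.068 (0.732) by the mean of its probe sets.

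**Figure D4:**
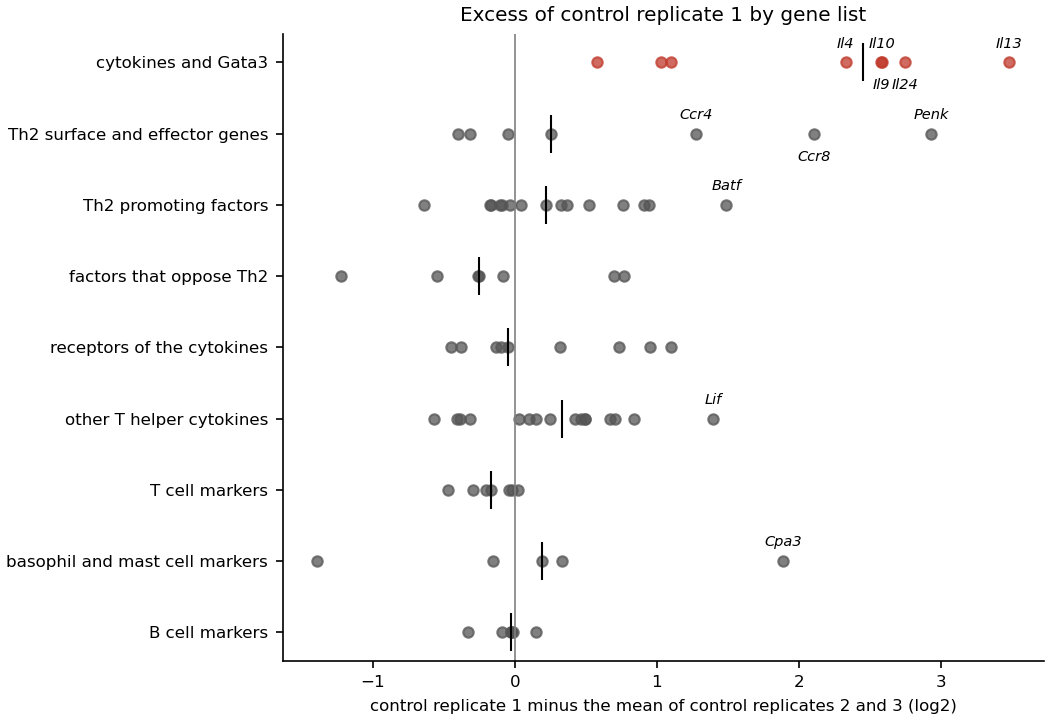
Control replicate 1 minus the mean of control replicates 2 and 3 (horizontal axis, log2) for every tested gene of 9 lists, 1 point per gene, with the median of each list as a vertical tick. The cytokines and Gata3 (red) have a median of 2.45, and T cell markers one of -0.17. Without Il10, which passed the filter on dim genes only through control replicate 1, the middle value of the set is that of Il4, 2.33.

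Among 15 tested factors that promote Th2 cells, 1 rose and none fell (median change 0.04), beside 5.19% and 6.98% of all genes tested. Stat5a, which carries interleukin 2 signals, rose by 0.72 (limma adjusted p = 0.0199), a call that held only without control replicate 1 or 3 (0.0185 and 0.0175) when arrays were left out in turn. The difference was 0.03 for Stat6 (adjusted p = 0.93) and -0.48 for Maf, an activator of Il4 and Il10 (0.389). There were 4 rises without control replicate 1, the others being Irf4 (0.80, adjusted p = 0.0291), Rbpj (0.65, 0.0179) and Notch1 (0.39, 0.0365). Over all 14787 genes tested, 1626 rose in that setting. Control replicate 1 was the highest control in Irf4, Rbpj and Notch1, so leaving it out by itself moves their change upward. With all arrays, the change was 0.54 in Irf4 (adjusted p = 0.233), 0.34 in Rbpj (0.485) and 0.32 in Notch1 (0.119). In Batf, which binds DNA together with Irf4, control replicate 1 exceeded the mean of the other controls by 1.49. Batf was the 1 gene of the 15 in which that array lay at least 1 log2 unit above both other controls, beside 1.31% of all genes tested. The median excess over the 15 was 0.22.

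Of 7 tested factors that oppose Th2 cells or mark other fates, 3 fell and 1 rose (median change -0.16). Of all genes tested 6.98% fell and 5.19% rose. Tbx21, the master factor of Th1 cells, fell by 1.20 (limma adjusted p = 0.0466), Runx3, its partner in silencing Il4, fell by 0.76 (0.0373) and Stat4, which carries interleukin 12 signals, fell by 0.91 (0.00403). Bcl6, the factor of follicular helper cells, rose by 1.42 (adjusted p = 0.0462). The call of Stat4 held whichever array was left out. With arrays left out in turn, that of Tbx21 held only without low arginine replicate 2 (0.0456), that of Runx3 without control replicate 1 (0.019) or low arginine replicate 3 (0.0265), and that of Bcl6 without control replicate 1 (0.0252) or 3 (0.0137). On leaving out control replicate 1 there were 2 falls and 2 rises, beside 1699 falls and 1626 rises among all 14787 genes tested. The added rise was Eomes (1.04, adjusted p = 0.00561). It was highest among the controls in control replicate 1, so leaving out that array by itself moves its change upward. With all arrays the change of Eomes was 0.79 (adjusted p = 0.0779).

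Among 12 tested regulators of Il9 and Il10, 2 fell and 1 rose (median change 0.02), beside 6.98% and 5.19% of all genes tested. Nfil3, a factor that promotes Il10 in Th cells, read 5.79, 5.66 and 5.55 in low arginine against 7.89, 7.41 and 7.14 in control, and fell by 1.81 (limma adjusted p = 0.00281). Prdm1, the repressor Blimp-1 that also supports Il10, fell by 1.36 (adjusted p = 0.00474). Foxo1, a factor of resting T cells that has been tied to Il9, rose by 0.57 (adjusted p = 0.0129), a call lost on leaving out any 1 of 3 arrays, namely control replicate 2 and low arginine replicates 2 and 3 (0.053 to 0.0638). Both falls held whichever array was left out.

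Of 9 tested receptor chains for these cytokines, 1 fell, beside 6.98% of all genes tested. Il10ra, the ligand-binding chain for interleukin 10, read 6.30, 6.40 and 6.26 in low arginine against 7.33, 7.80 and 7.75 in control, and fell by 1.31 (limma adjusted p = 0.00334, and 2.12e-04 to 0.0237 with any array left out). Its arrays showed no excess in control replicate 1, which was the lowest control. The difference was 0.06 for the interleukin 4 receptor Il4ra (adjusted p = 0.932) and 0.04 for Csf2rb, the shared chain for interleukins 3 and 5 and GM-CSF (0.945).

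Apart from the cytokines, the locus on chromosome 11 held 1 gene, Septin8, in which control replicate 1 lay at least 1 log2 unit above both other controls, with 5.03 against 3.62 and 3.90. In chromosomal order, Kif3a, Il4, Il13, Rad50, Il5 and Irf1 lie next to each other within the list, and Csf2 and Il3 follow beyond P4ha2. Rad50, which holds the locus control region of the Th2 cytokines, differed by -0.32 (limma adjusted p = 0.291), with control replicate 1 above the mean of the others by 0.43. Irf1 differed by 0.20 (adjusted p = 0.42). Between Irf1 and Csf2, Pdlim4, which encodes a LIM domain protein, rose by 1.02 (adjusted p = 0.0196) and P4ha2, a collagen prolyl hydroxylase, fell by 2.01 (0.00583). These were the 1 rise and 1 fall among 16 genes tested in this list, which includes Csf2, Il4, Il5 and Il13. Of all genes tested 5.19% rose and 6.98% fell. The call of Pdlim4 ended without control replicate 2 (0.0819) or low arginine replicate 3 (0.0674). Beside Il10 and Il24 on chromosome 1, their neighbours Il19 and Il20 lay near the dim limit, from 2.19 to 2.79, and were not tested. Il24 was the 1 call among 6 tested genes there, beside 12.2% of all genes tested.

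**Figure D5:**
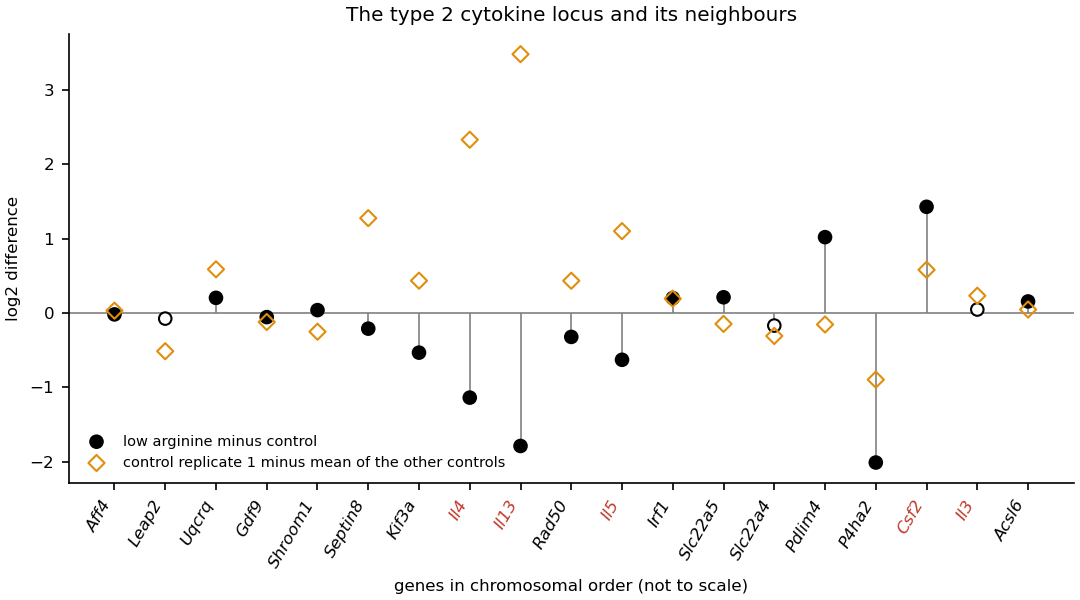
Log2 change in low arginine minus control (circles, open where the gene was left out as dim) and the excess of control replicate 1 over the mean of the other controls (orange diamonds) for 19 genes of the type 2 cytokine locus and its surroundings, in chromosomal order and not to scale. Il13 has the largest excess at 3.48, while Rad50 beside it has 0.43.

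The 3 genes whose pattern over the 6 arrays was most like that of Il24 were Epas1, Lilrb4a and Fads2. Likeness was the root mean square difference between values centred on each gene's own mean, which was 0.66, 0.75 and 0.76 log2 units. Epas1, a hypoxia-inducible factor subunit, read 3.54, 3.22 and 3.51 in low arginine against 8.20, 4.88 and 4.07 in control. Its change of -2.29 did not pass (limma adjusted p = 0.155), and it had the largest excess of control replicate 1 of all genes tested, 3.73. Fads2, a fatty acid desaturase, fell by 4.26 (adjusted p = 0.0036). Lilrb4a, an inhibitory receptor, fell by 2.13 (adjusted p = 0.0345), a call that held only without control replicate 1 (0.00992) among the arrays left out in turn.

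Among 16 tested cytokines of other helper T cells 5 rose and none fell (median change 0.33), beside 5.19% of all genes that rose. Il2 is among these 5 and entered the test only through the group in which it was high. The others were Tnfsf11, Lta, Il17a and Tnf. Il2, the T cell growth factor, passed the filter on dim genes only through low arginine, where it read 6.75, 6.89 and 4.93, against 2.60, 2.04 and 2.31 in control. With controls under the dim limit set to it, Il2 rose by at least 3.67, at least 12.7-fold (limma adjusted p = 0.0046 on the measured values). Tnfsf11, the ligand RANKL, rose by 2.21 (6.76e-04), Lta by 1.24 (0.0125), Il17a by 1.19 (0.0197) and Tnf by 1.18 (0.00639). Control replicate 1 was the lowest control in Il17a and Tnfsf11 and the highest in Il2, Tnf and Lta. Ifng, the signature cytokine of Th1 cells, read 3.03, 3.58 and 2.99 in low arginine and 3.79, 3.03 and 2.88 in control (change -0.03, adjusted p = 0.957). The calls of Lta and Il17a ended without low arginine replicate 2 (adjusted p = 0.0602 and 0.0879) or 3 (0.0592 and 0.0837), and that of Lta also without control replicate 2 (0.0617). Of the ligands of the epidermal growth factor receptor and the proteases that release them, limma called none of 10 tested, and 0 lay at an unadjusted p below 0.05.

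Most markers of other cells did not pass, those of CD8 and NK cells apart. Of 12 markers of basophils and mast cells 7 lay under the dim limit, among them Mcpt8, Fcer1a and Ms4a2, and limma called 0 of the 5 tested, with 0 at an unadjusted p below 0.05. The mean level of those 5 ran from 3.47 to 3.80 in low arginine and from 3.97 to 4.20 in control. The brightest, the mast cell protease Cpa3, read 6.72, 6.12 and 4.01 in low arginine and 8.48, 6.82 and 6.37 in control (change -1.61, adjusted p = 0.224). It too was highest in control replicate 1, without which its change was -0.98 (0.366). Kit went the other way among the controls, with 4.09 in control replicate 1 against 5.33 and 5.64. Control replicate 1 differed from the mean of the other controls by -1.39 in Kit and -0.16 in Tpsb2. That difference was 0.33 in Gata2 and 0.19 in Prss34. The same counts, 0 called and 0 at an unadjusted p below 0.05, held for 2 eosinophil, 6 B cell and 7 myeloid markers tested and for 7 T cell markers. The brightest of them outside T cells were Prg2 (change -0.30, adjusted p = 0.366), Bank1 (-0.05, 0.832) and Cd68 (0.21, 0.703). Mean levels by array ran from 2.37 to 2.73 in low arginine and 2.66 to 2.77 in control for eosinophil markers, from 2.84 to 2.95 and 2.81 to 2.96 for B cell markers, and from 3.16 to 3.22 and 2.96 to 3.23 for myeloid markers. Among 5 tested CD8 and NK cell markers, Klrk1 (-1.04, adjusted p = 0.0134) and Nkg7 (-0.67, 0.023) fell, beside 6.98% of all genes tested. Without control replicate 1, 5 of 5 fell, beside 1699 of all 14787 genes tested. Control replicate 1 was the lowest control in Cd8a, Cd8b1, Klrd1 and Nkg7, so leaving it out by itself moves their change downward. Their mean level by array ran from 4.28 to 4.42 in low arginine and from 4.78 to 5.23 in control. The call of Klrk1 ended without control replicate 2 (0.065) or low arginine replicate 3 (0.0638). With arrays left out in turn, that of Nkg7 held only without control replicate 1 (0.0113) or low arginine replicate 3 (0.0291).

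Transcripts of genes on the Y chromosome also differed between arrays. Eif2s3y read 5.89, 4.96 and 2.44 in low arginine replicates 1, 2 and 3 and 6.85, 4.75 and 2.59 in the controls. Uty read 5.53, 3.93 and 1.72 in low arginine and 5.44, 4.14 and 1.97 in the controls, and Kdm5d 5.24, 3.55 and 2.18 in low arginine and 4.90, 3.37 and 2.64 in the controls. In both groups the array numbered 1 was the highest and the array numbered 3 the lowest for these 3 genes. Low arginine replicate 1 was the highest low arginine array for Il24, Il13, Csf2, Il10, Gata3, Penk, Batf and Cpa3, and not for Il4, Il5, Il9 and Ccr8. In Gata3 (7.86 against 7.82) and in Il10 (2.51 against 2.40, near the dim limit) it was highest by little. The share of all genes tested that were highest in that array is not given here. The part of Cpa3-expressing cells or of the makeup of the mice in the excess of control replicate 1 was not tested.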

How the data were processed

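RNA of 6 samples was hybridised to Affymetrix whole-transcript arrays with 1 label each. The authors deposited log2 expression values per probe set, with array medians that differ little. The tool oligo is named per the submitters' processing notes, while its version and the background correction, scaling and summary method are not stated there. Base 2 was inferred from the spread of the values. The precision is limited by the number of arrays. Of 41345 probe sets, 23521 carried 1 gene symbol, 1814 several and 16010 none, and the first class was used. The dimmest genes, a share of 0.333, were left out. The test was that of limma 3.58.1 under R 4.3.3, from lmFit and eBayes with the group as sole term (two-sided, with 4 degrees of freedom from the arrays and 3.69 from the prior) and Benjamini-Hochberg adjustment over all genes tested. The fit was tested on simulated data. Figures were drawn with matplotlib 3.10.9.

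The genes of the set and the lists of related genes were chosen with earlier results of these data known. Of 191 list entries 179 had a probe set, 1 of them through an older symbol in the RefSeq table of GRCm38.p6. The genes to be named were all members, every list gene past the threshold (where over 5 passed in a direction, the 3 largest), 12 genes whatever their result, the 3 genes most like each called member and the brightest marker of each other cell type. Penk, Ccr8, Ccr4, Batf, Septin8, Epas1's place in the ranking, the Y-linked genes and the genes called only without control replicate 1 were picked after their values were seen.

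Replicate numbers did not pair the arrays by the labels. Alternatives were other scalings, other filters on dim genes, averaging probe sets, a prior with trend and robust fit, array weights, a replicate block, and leaving out each array.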

Additional observations from a re-analysis of the deposited data

How the results depend on the processing

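Among the cytokines and Gata3, the fall of Il24 kept its direction in every setting tried and its call in all 9 settings that kept every array (adjusted p = 0.00197 to 0.0466). Over the settings that leave out 1 array, the count of called genes of the set ran from 0 to 3, and that of all genes from 500 to 3325. By limma 0 genes of the set were called on leaving out any 1 of 3 arrays, namely control replicate 2 and low arginine replicates 1 and 2. Of all 14787 genes tested, 500, 995 and 509 passed in these settings. The count was 2 with a stricter filter on dim genes, with a trended and robust prior and with the replicate number as a block, where Csf2 joined Il24 (adjusted p = 0.0446, 0.047 and 0.0199). Of all genes tested, 1850 of 11090, 1647 of 14787 and 1568 of 14787 passed in these 3 settings. The stricter filter kept 6 genes of the set in the test, and the other 2 settings kept 8. With array weights, which gave control replicate 1 a weight of 0.24 and control replicate 2 one of 5.19, the count was 4 (Csf2, Il13, Il24 and Il9), and 5514 of all genes passed (2777 higher, 2737 lower). Centred on the 75th percentile, the split of all genes was 535 higher and 1190 lower. The cause of these differences was not tested.

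Some signs turned. With array weights the difference was 0.078 for Il10, against -0.89 without them, and Gata3 differed by 0.27, Ifng by 0.19 and Stat6 by -0.017. Stat6 differed by -0.0097 with median centring and by -0.034 with centring on the 75th percentile, where Csf2rb differed by -0.015. With single arrays left out, the change ran from -0.30 to 0.25 in Gata3, from -0.044 to 0.12 in Stat6, from -0.21 to 0.29 in Csf2rb, from -0.13 to 0.43 in Il4ra, from -0.22 to 0.25 in Ifng, from -0.22 to 1.36 in Penk, from -0.10 to 0.030 in Bank1 and from -0.030 to 0.56 in Cd68. The calls of Bcl6 and Tbx21 ended with no filter on dim genes (adjusted p = 0.0585 and 0.0584), that of Bcl6 with the replicate block (0.0504) and that of Foxo1 with the mean of its probe sets (0.121).

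Deviations from the group means correlated over genes at 0.12, 0.06 and 0.14 between arrays of the same replicate number, and each low arginine array correlated best with the control of its own number. Levels of the Y-linked genes Eif2s3y, Uty and Kdm5d also ran in the same order by number in both groups. These are hints from the data, not the design, and whether the numbers mark shared mice is not known, so p-values without the block take the arrays as unpaired. With the block 1568 of all genes passed, and Cpa3 passed as well (-1.61, adjusted p = 0.0287).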
